A study of Mus musculus with 384 samples.

Results

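The kidney endothelial genes described here are 10 genes chosen by name: Pecam1, Cdh5, Kdr, Emcn, Egfl7, Flt1, Plvap, Gpihbp1, Cd34 and Tmem88. All 10 were found, each under a single Ensembl identifier, among the 40594 genes listed in both deposited count tables. The samples were single mouse kidney cells from animals 8 weeks old, sorted by FACS into 96-well plates. Cells of 1 gate stained for PDGFRB and not for CD45 (here CD45-), and cells of the other stained for both (CD45+). Each gate was sorted in 2 batches, which gave 4 plates and 384 wells. The PDGFRB protein marks pericytes and other stromal cells, Ptprc encodes the CD45 phosphatase of leukocytes, and neither is a usual marker for sorting endothelial cells. The series title names kidney fibrosis and the well names carry UUO, an abbreviation that the labels do not spell out. No strain, genotype, sex or animal number is given, no untreated group is among the samples used here, and the labels separate no treatments among the 4 plates. Each plate was therefore treated as 1 sample, and no p-value, standard error or test was computed from wells.

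Endothelial cells line the blood vessels. In the kidney they form the fenestrated capillaries of the glomerulus, the peritubular capillaries around the tubules, and the arterioles and veins, and pericytes that express Pdgfrb lie against their outer wall. Pecam1 and Cdh5 encode adhesion proteins of the junctions between endothelial cells, and Kdr and Flt1 are the receptors for vascular endothelial growth factor. Emcn and Cd34 encode sialomucins of the cell surface, and Cd34 is also made by blood progenitors and by many fibroblasts. Egfl7 encodes a protein secreted by endothelial cells, Plvap builds the diaphragms of fenestrae and caveolae, Gpihbp1 carries lipoprotein lipase to the capillary surface, and Tmem88 is a membrane protein linked to inhibition of Wnt signalling.

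Promoter windows were read for the members that the RefSeq table of mouse assembly GRCm38.p6 holds, because these genes were read together in the same wells and ETS, GATA and SOX factors are known regulators of endothelial genes. The table held 7 windows of 300 bases, from 250 bases before to 50 after the start, for 5 of the 10 members: Cd34, Egfl7 with 3 windows, Emcn, Kdr and Flt1. An ETS core with its flank, CAGGAAG, searched on both strands, was found in 4 of the 7 windows, those of Cd34 and Emcn and 2 of Egfl7, and in 13.3% of all 32851 windows of the table. The 3 windows printed here show the letters for each of those 3 genes, with the ETS match in capitals. The Cd34 window is chr1:194938571-194938870 on the plus strand, the Emcn window is chr3:137340828-137341127 on the plus strand, and the Egfl7 window shown is chr2:26583615-26583914 on the plus strand. In the Cd34 and Emcn windows the match lies on the opposite strand and therefore reads CTTCCTG.
Cd34: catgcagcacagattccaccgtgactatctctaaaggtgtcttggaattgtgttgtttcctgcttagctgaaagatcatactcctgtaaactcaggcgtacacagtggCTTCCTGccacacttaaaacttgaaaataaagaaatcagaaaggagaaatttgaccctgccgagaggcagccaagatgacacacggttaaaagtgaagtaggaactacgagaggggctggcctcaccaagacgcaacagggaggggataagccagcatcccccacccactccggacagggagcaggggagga
Emcn: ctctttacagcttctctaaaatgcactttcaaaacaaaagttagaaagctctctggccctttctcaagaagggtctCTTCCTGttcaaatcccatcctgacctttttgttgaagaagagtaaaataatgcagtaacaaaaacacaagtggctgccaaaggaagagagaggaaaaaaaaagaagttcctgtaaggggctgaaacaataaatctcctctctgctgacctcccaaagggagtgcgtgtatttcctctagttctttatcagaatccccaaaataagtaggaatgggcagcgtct
Egfl7: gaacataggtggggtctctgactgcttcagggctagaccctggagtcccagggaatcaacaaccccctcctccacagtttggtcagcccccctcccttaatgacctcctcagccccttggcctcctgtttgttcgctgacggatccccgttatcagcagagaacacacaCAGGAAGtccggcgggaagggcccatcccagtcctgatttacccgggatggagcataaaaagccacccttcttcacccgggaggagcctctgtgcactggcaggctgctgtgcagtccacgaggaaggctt
The second ETS form searched, CCGGAAG, was in 8.86% of all windows and in none of the members', and the GATA form AGATAA was in 11.2% and in none. No other spelling of a GATA site was searched, so the absence holds for these letters only. The SOX form ACAAAG was in 18.7% of all windows and in 1 of the members', another Egfl7 window. The Kdr and Flt1 windows held none of these 4 forms. A match is a run of letters and not a binding site, and these counts say nothing about the factors.

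The wells held 5323 to 1246070 reads on genes. Of the 96 wells of each plate, 93 were kept in both CD45- plates, 92 in CD45+ batch 1 and 90 in CD45+ batch 2, as wells with at least 10000 reads and at least 500 genes. Pericyte and fibroblast markers were at least 4-fold higher in CD45- in both batches for 8 of 9 genes. Leukocyte markers were at least 4-fold higher in CD45+ for 8 of 8, so the plates followed the CD45 part of their gates. The CD45+ gate also stained for PDGFRB, yet a Pdgfrb read was found in 3 of 92 and 6 of 90 kept CD45+ wells. For Pdgfrb itself, the CD45- level was 294 CPM in batch 1 and 219.6 CPM in batch 2 (CPM are reads scaled to a common library total), and the CD45+ level was 0.113 and 5.73 CPM; well 68 gave 151 of the 163 CD45+ batch 2 reads. Wells with few reads stood apart from the rest. Of the kept CD45- wells under 50000 reads, 13 of 14 in batch 1 and 11 of 11 in batch 2 held at least 3 members at 100 CPM or more, and the same wells held a median of 4511 and 6121 CPM of collagen I (Col1a1 plus Col1a2). Over all CD45- wells under 50000 reads, left-out wells included, the members summed to 3789 and 2176 CPM and collagen I to 5995 and 6905 CPM. Both lay between the values of deeper wells with and without at least 3 members at 100 CPM. Results on wells are therefore given for wells of at least 50000 reads, 79 and 82 in the CD45- plates and 76 and 78 in the CD45+ plates, unless all kept wells are named. Wells are numbered 1 to 96 within their plate, in the order of the labels.

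Summed over the kept wells of a plate, the 10 members took 3407 CPM (exact Poisson 95% interval 3386 to 3428) in CD45- batch 1 and 2741 CPM (2723 to 2759.5) in CD45- batch 2. They took 741 CPM (730.3 to 751) in CD45+ batch 1 and 1554 CPM (1539 to 1568) in CD45+ batch 2. These intervals cover counting error only, and the distance between the 2 CD45+ batches was far wider than they are. In such sums, fewer cells of a type and less RNA per cell cannot be told apart. Endothelial reads were thus present in both gates, and higher as a sum in both CD45- plates. Gene by gene, 0 of 10 members were at least 4-fold higher in CD45- in both batches, where 12.9% of the 12882 genes compared were, and 0 of 10 were 4-fold higher in CD45+, where 4.33% were. At a 2-fold limit in both batches 4 of 10 members (Pecam1, Emcn, Flt1 and Cd34) were higher in CD45-, against 22.1% of all genes. For 8 of 10 members both CD45- plates stood above both CD45+ plates, which held for 34.1% of all genes. The members' median log2 ratio of CD45- over CD45+, each level plus 1 CPM, which understates the ratio of low genes, was 1.80 in batch 1 and 0.855 in batch 2, and that of all genes was 0.39 and 0.56. With TMM scaling (edgeR's trimmed mean factors) the all-gene medians moved to 0.09 and 0.08. The same factors lower the members' ratios too, and the members' medians of 1.80 and 0.855 are on total reads only. In batch 1 alone 4 members were at least 4-fold higher in CD45-, against 29.5% of all genes, and in batch 2 alone 2 were, against 31.9%.

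Of the junction genes, Pecam1 stood at 72.6 and 199 CPM in CD45- batches 1 and 2 and at 27.6 and 33.7 CPM in CD45+ batches 1 and 2. The groups of plates did not overlap, and the log2 ratio was 1.36 and 2.53. Cdh5 stood at 83.7 and 55.1 CPM in CD45- and at 38 and 68.3 CPM in CD45+, so the plates overlapped. Its log2 ratio was 1.12 in batch 1 and -0.31 in batch 2, and 1 CD45+ well moved each of them: without well 70 the first was 2.52, and without well 69 the second was 0.29. The mean over batches was 0.41, and -0.07 with TMM scaling. For Pecam1, CD45+ well 86 held 75.5% of the batch 1 reads, and without it the batch 1 ratio was 3.23 and the gene passed 4-fold in both batches. Its batch 2 ratio was 3.37 without CD45+ well 9 and 3.23 without well 8.

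Of the growth factor receptors, Kdr stood at 73 and 71 CPM in CD45- and at 20.3 and 88 CPM in CD45+. The CD45- plates were alike and lay between the CD45+ plates, with log2 ratios of 1.80 and -0.31. CD45+ well 53 held 97.0% of the Kdr reads of its plate, and without it the batch 1 ratio was 5.52; in batch 2, without well 68, the ratio was 0.27. Flt1 stood at 107 and 105 CPM in CD45- and at 46.8 and 15.3 CPM in CD45+, with log2 ratios of 1.17 and 2.71. Its plates did not overlap, and the batch 2 ratio was 3.72 without CD45+ well 19 and 3.32 without well 28. From batch 1 to batch 2 the ratio was thus smaller for Kdr and larger for Flt1.

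Of the surface and secreted genes, Emcn stood at 705 and 642 CPM in CD45- and at 89.2 and 284 CPM in CD45+, with log2 ratios of 2.97 and 1.17. Egfl7 stood at 681 and 635 CPM in CD45- and at 73.1 and 351 CPM in CD45+, with log2 ratios of 3.20 and 0.85. Cd34 stood at 97.3 and 289 CPM in CD45- and at 10.9 and 83.2 CPM in CD45+, with log2 ratios of 3.05 and 1.78. None of the 3 genes overlapped between the gates, and each was higher in batch 2 than in batch 1 within CD45+. Cd34 came nearest to the 4-fold limit in both batches: leaving out any of CD45+ wells 8, 24, 28 or 44 of batch 2 took its batch 2 ratio to between 2.02 and 2.09, past the limit. CD45+ well 50 held 90.6% of the Cd34 reads of batch 1 (5.60 without it), and well 67 held 50.4% of the Egfl7 reads (4.17 without it).

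Of the genes of fenestrae and capillary surface, Plvap stood at 89 and 97.7 CPM in CD45- and at 61.4 and 53.5 CPM in CD45+, with log2 ratios of 0.53 and 0.86. Without CD45+ well 50, which held 60% of the batch 1 reads, the first was 1.80. Gpihbp1 stood at 1300.1 and 571 CPM in CD45- and at 370 and 528 CPM in CD45+, with log2 ratios of 1.81 and 0.11. In batch 2 its gates were nearly level, and 1 well turned the direction: without CD45- well 74 the ratio was -0.22, while without CD45+ well 31 the batch 1 ratio was 2.44. Tmem88 stood at 198 and 74.9 CPM in CD45- and at 3.63 and 49.2 CPM in CD45+, with log2 ratios of 5.43 and 0.60. It had both the fewest reads in any plate (96, exact Poisson interval 2.94 to 4.43 CPM) and the widest distance between batches, and 1 CD45+ well held most of its reads in each: without well 67 the first ratio was 7.21, and without well 28 the second was 1.75.

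**Figure D1:**
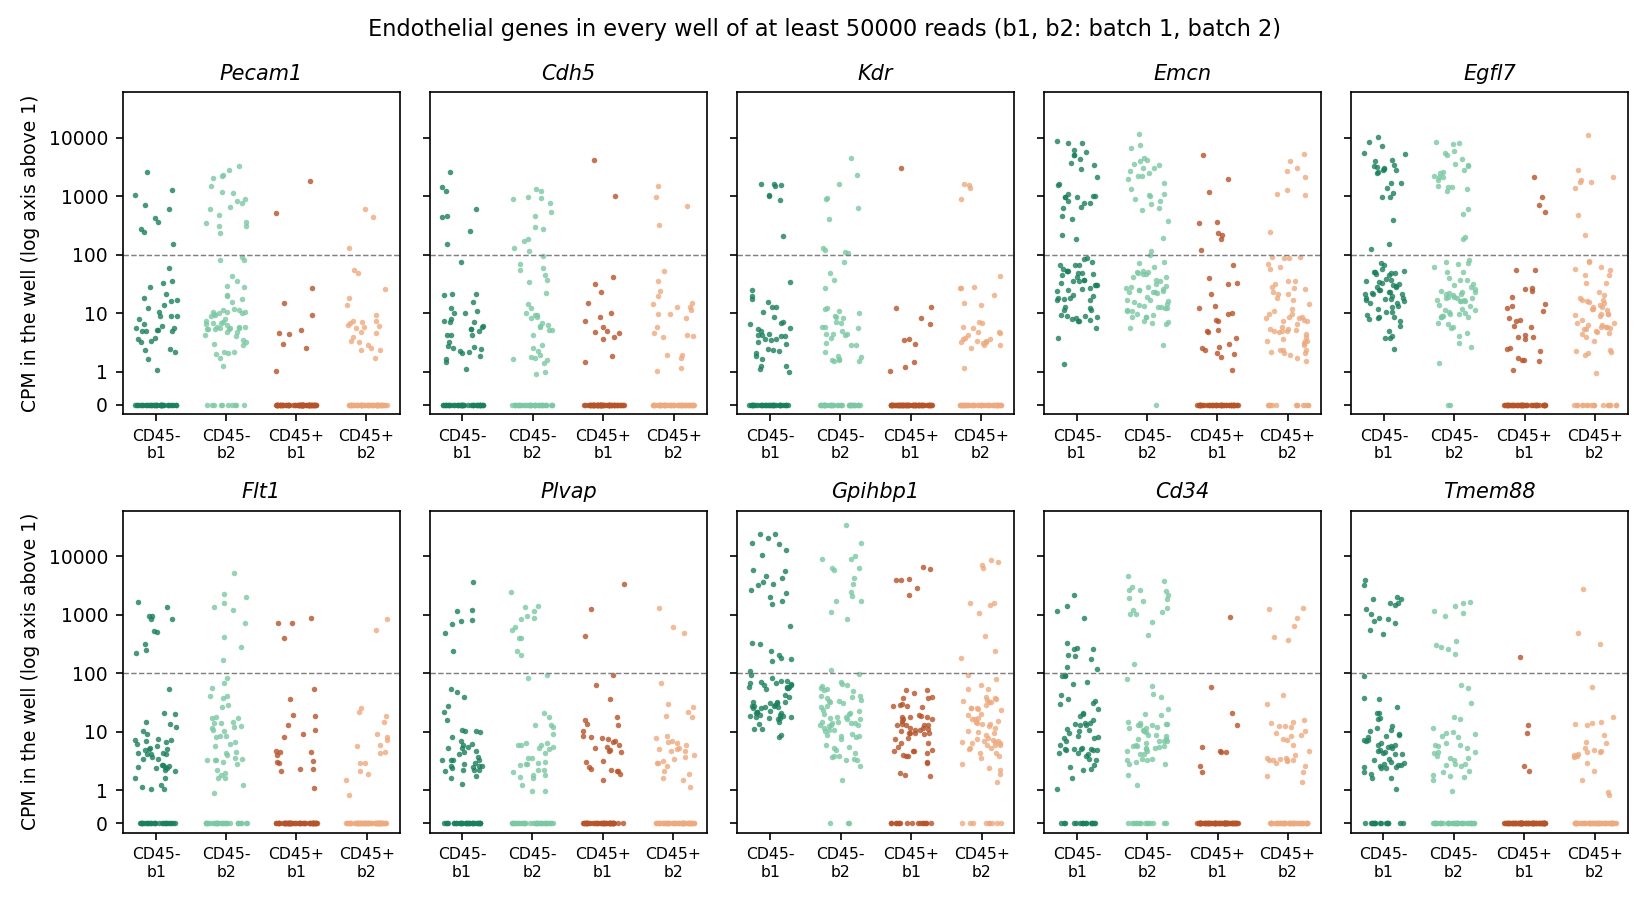
Level of each of the 10 members in every well of at least 50000 reads. The vertical axis is CPM in the well (log axis above 1), the 4 columns of each panel are the plates, each point is 1 well, and the dashed line is 100 CPM. Points above the line are few in the CD45+ columns (1 to 11 wells per gene and plate) and more frequent in the CD45- columns (8 to 29 wells).

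Well by well, each member was at 100 CPM or more in a minority of wells. In CD45- wells without at least 3 members at that level, the median lay between 16.6 and 30.5 CPM for Emcn, Egfl7 and Gpihbp1 and at 5.86 CPM or less for the other members. In CD45- wells of at least 50000 reads, at least 100 CPM of Emcn was found in 29 of 79 wells in batch 1 and 29 of 82 in batch 2, of Egfl7 in 25 and 26, and of Gpihbp1 in 28 and 17. Cdh5 reached that level in 8 and 14 wells, Kdr in 8 and 11, Flt1 in 11 and 10 and Plvap in 8 and 13. Pecam1 did in 10 and 19, Cd34 in 13 and 18 and Tmem88 in 16 and 11. A bare read was a much wider criterion: in the same wells Emcn and Egfl7 had at least 1 read in 79 of 79 of batch 1. The median over kept wells, 65.7 and 47.6 CPM for Emcn and 48.2 and 36.8 CPM for Egfl7, lay below the 100 CPM level. After thinning each of these wells to 50000 reads, a read of Emcn was left in 77.2% (95% exact interval 66.4 to 85.9) and 78% (67.5 to 86.4) of CD45- wells and in 23.7% (14.7 to 34.8) and 43.6% (32.4 to 55.3) of CD45+ wells. These shares describe wells of single plates, and carry-over of RNA between wells was not tested.

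Of the 79 CD45- wells of batch 1, 36 held no member at 100 CPM, 17 held 1 or 2, and 26 held at least 3 and up to 7. In batch 2, of 82 wells, 38 held none, 19 held 1 or 2, and 25 held at least 3 and up to 8. A well with at least 3 members at 100 CPM is called endothelial-rich below. That rule uses the members' own levels, so their levels in such wells are a description and support nothing. Endothelial-rich wells were 32.9% of the CD45- wells of batch 1 and 30.5% of those of batch 2 (26 and 25 wells), and 6.58% and 11.5% of the CD45+ wells (5 and 9 wells). The wells just inside the limit, with exactly 3 members, were 3 and 2 in CD45- and 2 and 3 in CD45+; those just outside, with exactly 2, were 6 and 7 in CD45- and 2 and 3 in CD45+.

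No well held all 10 members at 100 CPM, and the set of members differed from well to well. Over the 26 endothelial-rich CD45- wells of batch 1 and their 260 gene-by-well values, 51.2% were at least 100 CPM and 17.3% were 0. Over the 25 wells of batch 2, 56.8% of 250 values were at least 100 CPM and 14.8% were 0. The same gene could therefore be among the most abundant in 1 endothelial-rich well and at 0 in another. Gpihbp1 ran from 8.88 to 24193 CPM over the wells of batch 1 (median 3279) and from 0 to 33801 CPM over those of batch 2 (median 1728). Pecam1, the usual marker of the lineage, reached 100 CPM in 9 of 26 and 18 of 25 of these wells, with medians of 17.7 and 610 CPM. Cd34 did so in 9 of 26 and 16 of 25, with medians of 67.8 and 1039 CPM, and Tmem88 went the other way, in 16 of 26 and 11 of 25, with medians of 759 and 11.7 CPM. Emcn (23 of 26 and 21 of 25) and Egfl7 (24 of 26 and 20 of 25) were at that level in most of these wells in both batches.

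**Figure D2:**
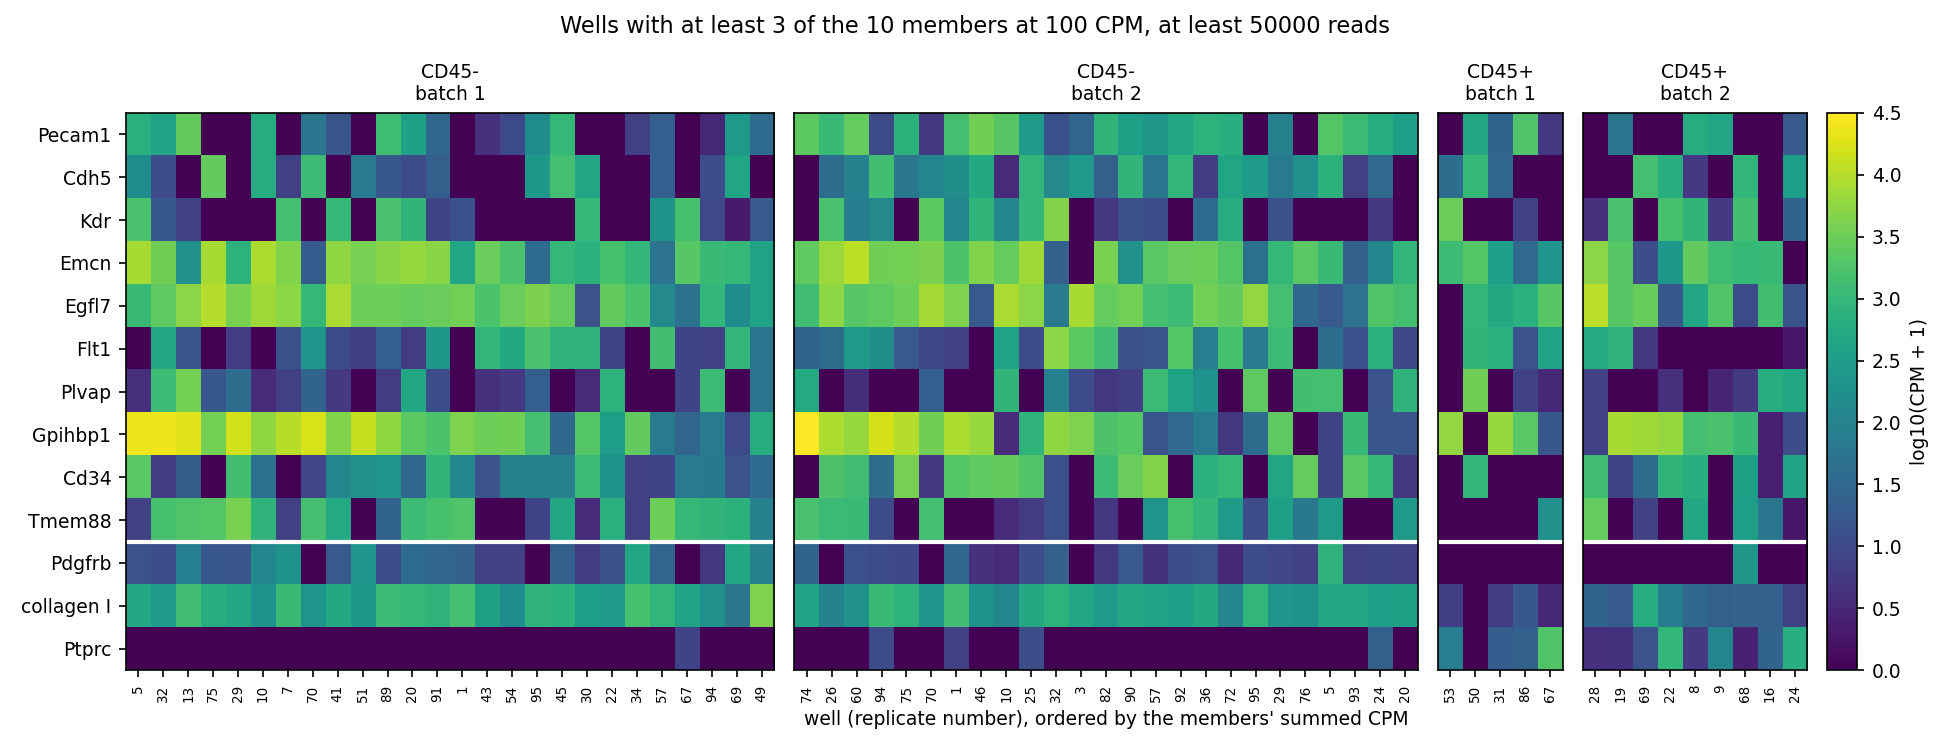
Levels in the endothelial-rich wells of at least 50000 reads. Columns are wells, labelled by number and ordered within each plate by the members' summed CPM, rows are the 10 members and, below the white line, Pdgfrb, collagen I (Col1a1 plus Col1a2) and Ptprc, and the colour is log10(CPM + 1). Emcn and Egfl7 fill most columns of the CD45- plates, Kdr and Plvap are dark in most, and Pdgfrb is at 0 in every CD45+ column but that of well 68.

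Most CD45- wells that held a member at 100 CPM held another. Of the wells at 100 CPM or more, all 16 and 11 wells with Tmem88 in CD45- batches 1 and 2 held a second member, as did 10 of 10 and 19 of 19 with Pecam1, and 25 of 25 and 25 of 26 with Egfl7. Emcn was alone in 3 of 29 and 5 of 29 wells, and Plvap in 2 of 8 and 1 of 13. The pair found together most often was Emcn and Egfl7, in 22 of the 32 batch 1 wells and 20 of the 35 batch 2 wells that held either. Tmem88 lay nearly always within wells holding Egfl7, in 15 of its 16 wells in batch 1 and 10 of 11 in batch 2. The growth factor receptors Kdr and Flt1 were both at 100 CPM in 2 of the 17 wells of batch 1 that held either, and in 4 of 17 in batch 2. Each was rare by itself, Kdr at that level in 8 and 11 wells and Flt1 in 11 and 10. Plvap, at that level in 8 and 13 wells, was found with Kdr in 1 of 15 and 1 of 23 wells that held either. With Cdh5 it was in 0 of 16 and 4 of 23, and with Tmem88 in 5 of 19 and 6 of 18. Whether these genes shared fewer wells than their rarity gives was not tested. Across wells, Pearson correlations of log2(CPM + 1) were above 0 for 45 of 45 pairs in batch 1 (79 wells, median 0.38) and for 44 of 45 in batch 2 (82 wells, median 0.43). Plvap and Kdr were the exception in batch 2, at -0.08. These wells share a plate and differ in depth, and the correlations are given as a description.

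Collagen I, the fibrillar collagen that fibroblasts lay down, was low in endothelial-rich CD45- wells. In the 26 wells of batch 1 Col1a1 plus Col1a2 ran from 58.8 to 4227 CPM with a median of 511, and in the other 53 wells from 94.7 to 66128 CPM with a median of 9152. In batch 2 the 25 wells ran from 102 to 1331 CPM (median 410.5) and the other 57 from 110 to 71870 CPM (median 5612). The medians stood many-fold apart in both batches, and the ranges overlapped. At least 1000 CPM of collagen I was found in 7 of 26 endothelial-rich wells (26.9%, 95% exact interval 11.6 to 47.8) against 45 of 53 others (84.9%, 72.4 to 93.3) in batch 1, and in 2 of 25 (8%, 0.984 to 26) against 40 of 57 (70.2%, 56.6 to 81.6) in batch 2. At least 1 collagen I read was present in every endothelial-rich CD45- well, 26 of 26 and 25 of 25, and in every other well too, so a bare read does not set the wells apart.

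Other fibroblast genes followed collagen I. Over all kept CD45- wells, 6 of 9 pericyte and fibroblast markers were at least 4-fold lower in endothelial-rich wells in both batches, where 12.3% of the 12035 genes compared were lower by that rule. The 6 were Col1a1, Col1a2, Col3a1, Dcn, Lum and Pdgfra, the matrix genes and a receptor of fibroblasts. Pdgfra, for example, stood at 7.34 and 2.21 CPM in endothelial-rich wells and at 133 and 61.5 CPM in the others, log2 ratios of -4.01 and -4.28. The 3 that did not pass were the genes of pericytes: Pdgfrb (-1.59 and -2.20), Rgs5, a signalling regulator (0.55 and -0.99), and Cspg4, which encodes NG2 (0.56 and -3.36). A single endothelial-rich well, well 45 of batch 1 with 952 CPM, set the Cspg4 level: among wells of at least 50000 reads it was 62.4 CPM with that well and 1.2 CPM without it.

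Pdgfrb transcripts, the message of the sort marker itself, were sparse in CD45- wells of both kinds and were not absent from endothelial-rich ones. A read of Pdgfrb was found in 23 of 26 wells in batch 1 (88.5%, 69.8 to 97.6) and 22 of 25 in batch 2 (88%, 68.8 to 97.5), against 51 of 53 (96.2%) and 51 of 57 (89.5%) of the others. Median depth differed, at 208013 and 206802 reads against 373460 and 372121. At an even 50000 reads per well the shares were 61.5% (40.6 to 79.8) and 40% (21.1 to 61.3) against 69.8% (55.7 to 81.7) and 57.9% (44.1 to 70.9), lower in the endothelial-rich wells in both batches, with no test of the difference. The median endothelial-rich well held 17.3 and 8.22 CPM, not far below the 22.1 and 11.2 CPM of the others. In reads, the level pooled over wells was 102 and 44.6 CPM in endothelial-rich wells and 354 and 260 CPM in the others. Much of the former came from 1 well in each batch: without well 69 the batch 1 level was 45.4 CPM, and without well 5 the batch 2 level was 7.86 CPM.

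Wells with Pdgfrb at 100 CPM and at least 3 members were 5 of 26 in batch 1 (19.2%, 6.55 to 39.4) and 1 of 25 in batch 2 (4%, 0.101 to 20.4), against 18 of 53 (34%, 21.5 to 48.3) and 19 of 57 (33.3%, 21.4 to 47.1) of the others. In batch 1 they were wells 7, 10, 34, 51 and 69, with 192, 127, 486, 229 and 496 CPM of Pdgfrb, and in batch 2 well 5, with 844 CPM. Well 34 also held 5639 CPM of Rgs5 and well 5 held 718 CPM, so 1 other gene of the pericyte list was in those wells too. Rgs5 did not keep to 1 gate in both batches. Over kept wells it stood at 226 and 97.3 CPM in CD45- and at 29.3 and 103 CPM in CD45+. Well 69 held 6 members at 100 CPM, 15 of 25 other endothelial genes, and the lowest collagen I of all 26 wells, 58.8 CPM. Each well was sorted as a single cell, and whether any held more than 1 cell was not tested.

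**Figure D3:**
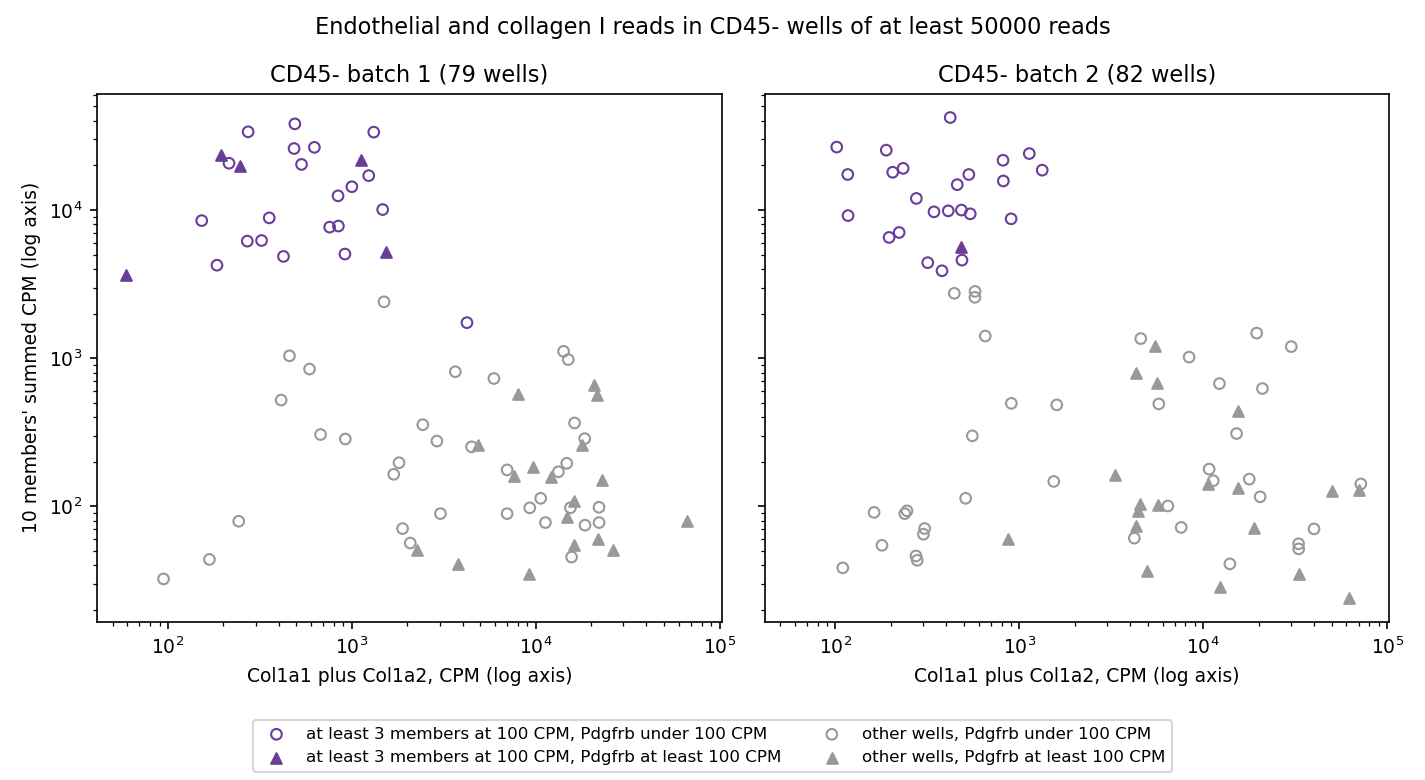
Summed CPM of the 10 members against collagen I CPM (Col1a1 plus Col1a2) in CD45- wells of at least 50000 reads, both on log axes, batch 1 on the left and batch 2 on the right. Each point is 1 well; purple points have at least 3 members at 100 CPM, triangles have Pdgfrb at 100 CPM or more. Purple points sit mostly at the upper left (medians 511 and 410.5 CPM of collagen I) and grey points mostly at the lower right (medians 9152 and 5612 CPM), with some grey points low on both axes.

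Blood cell transcripts were also read in these wells. Ptprc had a read in 1 of 26 and 4 of 25 endothelial-rich CD45- wells, at most 6.97 and 22.1 CPM. The 8 leukocyte markers summed to a median of 17.8 and 65.6 CPM (up to 6551 and 2211) against 14.4 and 45.9 CPM in the others. Hemoglobin and Alas2, the 5 red blood cell markers, summed to a median of 8432 and 3267 CPM against 6318 and 2439 CPM, and well 43 of batch 1 stood out with 656055 CPM. The 8 macrophage markers summed to a median of 139 CPM against 13.3 CPM in batch 1 and of 66.9 CPM against 46.3 CPM in batch 2. The log2 ratio of pooled levels, endothelial-rich over other wells, was 5.19 in batch 1 and 0.23 in batch 2 for Lyz2, a macrophage lysozyme, and 4.95 and -0.25 for Tyrobp, a leukocyte adaptor. Among the 8 macrophage markers C1qa alone passed 4-fold in both batches over all kept wells, and in wells of at least 50000 reads none did. None of the 8 leukocyte or 5 red blood cell markers was 4-fold higher in endothelial-rich wells in both batches, and the part of these transcripts in the members' values was not tested.

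Members also appeared in CD45- wells that were not endothelial-rich, and there they differed from each other. Emcn stood at 100 CPM or more in 6 of 53 such wells of batch 1 and 8 of 57 of batch 2, and 4 and 8 of these held at least 1000 CPM of collagen I. Cd34 did so in 4 and 2 wells, all with at least 15171 CPM of collagen I, and Plvap in 3 and 4 wells, of which 3 and 2 had 1000 CPM of collagen I. Gpihbp1 did so in 7 and 2 wells, of which 4 and 1 had 1000 CPM of collagen I, and Egfl7 in 1 and 6, of which 1 and 3 did. By contrast Tmem88 reached 100 CPM in 0 and 0 of these wells, Cdh5 in 0 and 1, Kdr in 0 and 2, Flt1 in 1 and 0 and Pecam1 in 1 and 1. In shares of reads, endothelial-rich wells held 98.2% and 97.3% of the Tmem88 reads of CD45- wells, 95.4% and 97.5% of those of Flt1 and 97.6% and 96% of those of Gpihbp1. They held 67.8% and 69.8% of Plvap reads and 71.7% and 87.7% of Cd34 reads, from wells that made up 24.5% and 19.4% of all reads. The shares are a description, since the members' own levels chose the wells.

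Endothelial-rich wells of the CD45+ gate were wells 31, 50, 53, 67 and 86 of batch 1 and wells 8, 9, 16, 19, 22, 24, 28, 68 and 69 of batch 2. Their members' summed level ran from 2965 to 10236 CPM in batch 1 (median 8154) and from 1297 to 20826 CPM in batch 2 (median 7220), against medians of 11273 and 11978 CPM in the endothelial-rich CD45- wells. Well 50 held 7 members, among them Plvap at 3404 CPM, Emcn at 1974 CPM and Cdh5 at 1025 CPM, with 0 reads of Ptprc, Pdgfrb and collagen I. Well 8 of batch 2 also held 7, with Emcn at 2643 CPM, Kdr at 883 CPM and Pecam1 at 605 CPM, and 3 reads of Ptprc. Well 28 held Egfl7 at 10943 CPM, the highest level of that gene in any kept well of the gate, beside Emcn at 5285 CPM and Tmem88 at 2723 CPM. The highest level of each member in these CD45+ wells lay below its highest in endothelial-rich CD45- wells for 9 of 10 members, Egfl7 being the exception (10171 CPM in CD45-). The CD45+ wells were fewer, 5 and 9 against 26 and 25, and a larger group more often holds the highest value. That count therefore does not show lower levels in the CD45+ wells.

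Ptprc in the CD45+ endothelial-rich wells ranged from 0 to 1886 CPM in batch 1 (median 23.1) and from 1.57 to 971 CPM in batch 2 (median 13.3). The other CD45+ wells had medians of 24.8 and 12.7 CPM, so the message of the sort marker did not set these wells apart. Ptprc was at 100 CPM or more in well 67 of batch 1 (1886 CPM) and in wells 9, 22 and 24 of batch 2 (117, 971 and 681 CPM). The 8 leukocyte markers summed to medians of 15855 and 15792 CPM against 32172 and 25830 CPM in the other CD45+ wells; 5 of 5 and 8 of 9 endothelial-rich wells lay under the others' median. The lowest sums were 3582 CPM in well 50 of batch 1 and 1843 CPM in well 8, 2987 CPM in well 28 and 5916 CPM in well 68 of batch 2. For the 8 macrophage markers the medians were 14411 and 27156 CPM against 17502 and 31655 CPM. Leukocyte and macrophage transcripts were thus present beside the members in every one of the 14 wells, at 1589 CPM or more of macrophage markers, and their part in the members' levels was not tested.

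Pdgfrb, the marker that both gates stained for, had no read in any of the 5 endothelial-rich CD45+ wells of batch 1 (exact upper limit 52.2%) and a read in 1 of 9 in batch 2, well 68, with 151 reads and 238 CPM. Of the other CD45+ wells, 3 of 71 and 4 of 69 held a Pdgfrb read, none at 100 CPM. Collagen I was lower than in the CD45- wells, with medians of 5.38 and 25.2 CPM in the endothelial-rich CD45+ wells, a single well (69 of batch 2, 614 CPM) above 100 CPM, and medians of 14.6 and 44.5 CPM in the others.

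Some CD45+ wells held a member at a high level without most of the others. Of the 16 and 19 wells there with any member at 100 CPM, 11 and 10 held only 1 or 2, against 17 of 43 and 19 of 44 in CD45-. Gpihbp1 was alone in 3 of 7 and 3 of 11 wells and Emcn in 4 of 9 and 1 of 9. Well 70 of batch 1 held Cdh5 at 4188 CPM, above any CD45- well of at least 50000 reads (highest 2606 CPM), with no other member at 100 CPM, and well 8 of batch 1 held Emcn at 5141 CPM in the same way. Wells 5, 82 and 91 of batch 1 held Emcn at 119, 237 and 368 CPM with 6633, 3338 and 1617 CPM of collagen I and leukocyte marker sums of 678, 769 and 775 CPM, so they held fibroblast reads and few leukocyte reads inside the CD45+ gate.

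Other endothelial genes, which the choice of wells did not use, were mostly higher in the same wells. Over all kept CD45- wells, 39 endothelial-rich against 54 others in batch 1 and 36 against 57 in batch 2, 20 of 25 other endothelial genes were at least 4-fold higher in the endothelial-rich wells in both batches, and 0 were lower. Of the 12035 genes compared, 3.25% were higher by that rule. The median log2 ratio of the 25 genes was 5.03 and 4.36, against -0.19 and -0.29 over all genes. Tek, the angiopoietin receptor, had 341 CPM in batch 1 and 499 CPM in batch 2, where the other wells had 9.46 and 54.9 CPM (log2 ratios of 5.03 and 3.16). Cldn5, a tight junction protein, had 197 and 276 CPM where the others had 1.77 and 1.89 CPM (6.16 and 6.59), and Cd93, a C-type lectin-like receptor, had 533 and 674 CPM where they had 7.41 and 4.76 CPM (5.99 and 6.87). The list was chosen with results of these data known, and no enrichment was tested.

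Not all of the 25 followed. Eng, a co-receptor for TGF-beta ligands that fibroblasts also make, stood at 24.3 and 178 CPM in endothelial-rich wells against 72 and 42.5 CPM in the others, with log2 ratios of opposite sign, -1.53 and 2.04. Ecscr had ratios of 1.36 and 3.32 with 459 and 167 CPM in the others, and Clec14a 0.01 and 6.17. Vwf, the clotting factor carrier stored by endothelial cells of larger vessels, was at 0.136 and 0 CPM in endothelial-rich wells, and Tal1 at 0 and 9.02 CPM. Of the wells of at least 50000 reads, the number of these 25 genes at 100 CPM had a median of 7 and 8 in endothelial-rich CD45- wells (2 to 15 and 3 to 16) and of 1 and 1 in the others. In the CD45+ gate the median was 6 and 5 in endothelial-rich wells (2 to 7 and 2 to 9) and 0 and 0 in the others.

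**Figure D4:**
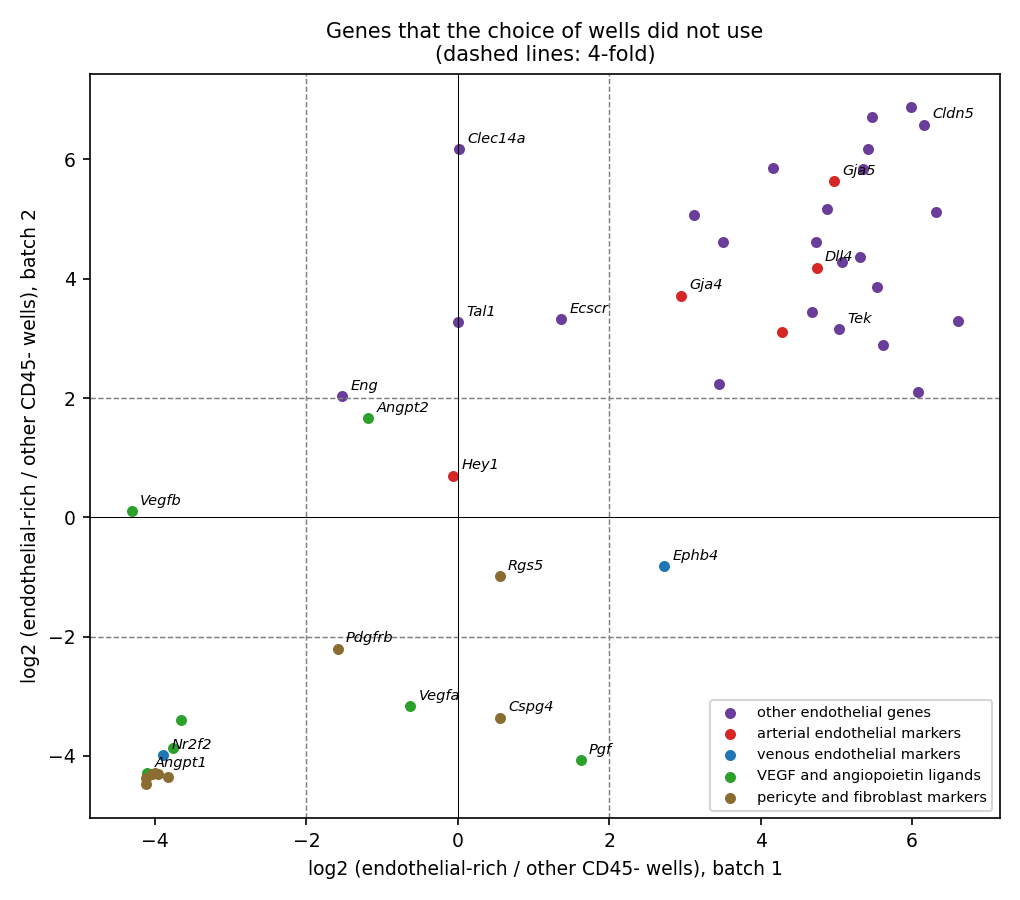
Log2 ratio of summed CPM (plus 1) in endothelial-rich over other kept CD45- wells, batch 1 on the horizontal and batch 2 on the vertical axis, for lists of genes that did not choose the wells. Each point is a gene of at least 1 CPM on average and dashed lines mark 4-fold. Of 25 other endothelial genes 20 lie beyond both lines at the upper right, and 6 of 9 pericyte and fibroblast markers at the lower left. Pdgfrb and Cspg4 lie past the lower line in batch 2 alone, and Rgs5 lies between the lines.

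By vessel type, over all kept wells as before, 4 of 6 arterial markers were at least 4-fold higher in endothelial-rich CD45- wells in both batches, namely the connexins Gja4 (490 and 725 CPM against 62.6 and 54.1) and Gja5 (41.8 and 72.1 against 0.364 and 0.472), the ephrin Efnb2 and the Notch ligand Dll4. In wells of at least 50000 reads 3 of 6 were, since Efnb2 had a batch 2 log2 ratio of 3.10 over all kept wells and of 1.01 over the deeper ones (13.4 against 6.13 CPM). Among wells of at least 50000 reads, Gja4 stood at 100 CPM in 12 of 26 and 7 of 25 endothelial-rich wells. Gja5 did so in 1 and 1 of these wells, Efnb2 in 1 and 2 and Dll4 in 1 and 4. Apart from Gja4, the arterial markers that passed were thus at that level in few endothelial-rich wells. Of the venous markers, Nr2f2, a nuclear receptor of veins that stromal cells also make, was lower, at 21.8 and 15.7 CPM against 336 and 262 CPM. Selp and Ackr1 were at 0 in endothelial-rich wells of both batches and at 0.0909 CPM or less in the others, too low to compare. Ephb4, the receptor of venous cells for ephrin B2, had ratios of opposite sign in the batches (2.73 and -0.81). Of the lymphatic markers, Prox1, Mmrn1 and Ccl21a were at 0 in endothelial-rich wells, and Lyve1 was at 0.136 and 0 CPM. These 4 genes were at 0.0455 CPM or less in the other wells, so they were too low to compare. Flt4, at 56.6 and 0.158 CPM in endothelial-rich wells, reached 100 CPM in 1 batch 1 well of at least 50000 reads. Ehd3, a marker of glomerular endothelium, was higher at 91.1 and 818 CPM against 15.8 and 107 CPM. Sost was at 0 in wells of both kinds. Lpl was not higher (log2 ratios of -1.77 and -0.81), and Nostrin, which binds nitric oxide synthase, passed in batch 1 alone (3.19 and 1.62).

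The ligands of the receptors did not follow the members. Of 8 genes for growth factor and angiopoietin ligands, 3 were at least 4-fold lower in endothelial-rich CD45- wells in both batches: Angpt1 (1.09 and 0.316 CPM against 35.2 and 24.8), Angpt4 (0.952 and 3.32 against 23.6 and 44.5) and Vegfd (3.26 and 6.17 against 56.7 and 104). None was higher. By the same rule 12.3% of the 12035 genes compared were lower. Among wells of at least 50000 reads, Angpt1 reached 100 CPM in 1 of 53 and 2 of 57 of the other wells. Angpt4 did so in 4 and 4 of them and Vegfd in 6 and 9. None of the 3 did in endothelial-rich wells, so at that level they were rare in wells of both kinds. Angpt2, which endothelial cells release, had ratios of opposite sign in the batches (-1.18 and 1.67), and so did Pgf (1.62 and -4.07). Vegfa, the main ligand of Kdr and Flt1, was at 0 and 1.11 CPM in endothelial-rich wells and at 0.546 and 18 CPM in the others, where 2 of 57 batch 2 wells reached 100 CPM.

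Of 8188 other genes with reads in enough wells, the 10 whose log2(CPM + 1) followed the members' summed level most closely, by the smaller Pearson correlation of the 2 CD45- batches (79 and 82 wells), were Gimap6, Gimap4, H2-D1, Ly6c1, Fabp4, Ly6e, Ctla2a, Icam2, Il2rg and B2m. The smaller correlation ran from 0.53 for B2m to 0.73 for Gimap6, and the median correlation of all ranked genes was -0.01 in batch 1 and -0.03 in batch 2. Gimap6, a GTPase of the immune-associated family, stood at 100 CPM in 18 of 26 and 19 of 25 endothelial-rich wells and in 1 of 53 and 6 of 57 others. Fabp4, a fatty acid carrier of capillaries, did in 19 and 15 against 6 and 2 wells, and Icam2, an adhesion molecule, in 13 and 13 against 1 and 1. B2m, the light chain of class I MHC, was instead at 100 CPM in nearly all wells of both kinds, 26 of 26 and 52 of 53 in batch 1, and H2-D1, a heavy chain, in 24 of 26 and 24 of 53. In CD45+ wells Gimap6 reached 100 CPM in 2 of 5 and 5 of 9 endothelial-rich wells and in 1 of 71 and 3 of 69 others. The wells of a batch share a plate and differ in depth, and the members' sum and the choice of wells rest on the same reads.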

How the data were processed

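Single-cell counts per gene and well were deposited by the authors as 2 tables of raw counts, 1 per batch, with both gates side by side. The submitters' processing notes list STAR 3.0.4, Subread and featureCounts 1.4.5; the genome build and annotation are not given in the sources used here. Libraries were made with the Clontech SMARTer system, per the labels' protocols, and no molecular identifiers are named, so reads are not independent molecules and every interval covers counting error only. Repeated gene lines, 598 of 41192 and 595 of 41228, were dropped (2.39% and 2.42% of counts). Every count column matched a labelled well.

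Wells with at least 10000 reads and 500 genes were kept, 368 of 384. The plates summed to 29367926 and 31778475 reads (CD45-, batches 1 and 2) and 26513530 and 28506906 reads (CD45+), and the median kept well held 225559 to 288818 reads. No 2 wells held identical values. Each plate was 1 sample. Plate levels are counts scaled to CPM with exact Poisson intervals; shares have exact Clopper-Pearson intervals, both at 95%. The gate ratio and the ratio of endothelial-rich to other wells are on the log2(CPM + 1) scale and cover genes whose mean level reached 1 CPM; a gene was called at 4-fold in the same direction in both batches. Thinning drew 50000 reads per well (seed 7).

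The members and all gene lists were chosen with earlier results of these data known. Named genes are the 10 members, members of the lists, and the 10 genes with the largest smaller correlation across both batches, among genes with a read in at least 5 wells of each batch. The alternatives were TMM factors, totals without red blood cell genes, other pseudocounts, repeated lines summed, the mean of well CPM, other limits for wells and folds, single batches, thinning, and leaving out each well; restricting the well comparison to wells of at least 50000 reads was added after seeing the data. Scripts were tested on simulated data. Python 3.11.15, numpy 2.4.6, pandas 2.3.3, scipy 1.17.1, matplotlib 3.10.9, R 4.3.3 and edgeR 4.0.16 (TMM factors only) were used.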

Additional observations from a re-analysis of the deposited data

Results flagged for a closer look

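The gate ratios of Cdh5 and Kdr had opposite signs in the batches. For Cdh5 the log2 ratio of CD45- over CD45+ was 1.12 in batch 1 and -0.31 in batch 2, and for Kdr it was 1.80 and -0.31. The difference between batches was not tested, since each batch holds 1 plate per gate.

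Wells left out for few reads also held member reads. The 6 CD45- wells, of 5323 to 9181 reads, held 77 member reads, 1782 CPM, where 3 reads correspond to 69.4 CPM. The 10 CD45+ wells, of 6324 to 9740 reads, held 89 member reads, 1106 CPM, where 3 reads correspond to 37.3 CPM. Of these wells, 6 of 6 and 5 of 10 had at least 3 members at 100 CPM, a level that 1 read reaches at this depth.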

How the results depend on the processing

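With 1 plate per gate and batch, results rest on single plates and, for low genes, on single wells. The count of members at least 4-fold higher in CD45- in both batches was 0 with total reads and with TMM factors, 1 with the mean of well CPM, 4 at 2-fold in both batches, 4 in batch 1 alone and 2 in batch 2 alone; leaving out each well in turn gave 0 to 1. Of 80 recomputed member ratios, averaged over batches, 78 moved by less than 1 SD over batches. That SD rests on 2 values and is wide where the batches disagree, so the count does not show that the ratios are stable. Gpihbp1, for example, stayed within it while running from 0.48 to 2.01. Plvap gave 0.21 with TMM factors and 0.98 with the mean of well CPM, and Cdh5 was below 0 (-0.07) with TMM factors. Counting a member as present at 1 read made 93 and 93 CD45- wells and 53 and 78 CD45+ wells endothelial-rich. In CD45+ batch 1 the count of kept endothelial-rich wells, 7, was 13 at 50 CPM, 13 at 2 members and 3 at 4 members, and in CD45+ batch 2 it was 20 at 2 members against 13. With each well thinned before the choice of wells, the share with a Pdgfrb read was 61.5% and 42.9% in CD45- batches 1 and 2. Gate ratios were taken within each batch, and no model over the 4 plates was fitted.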
